A study of Homo sapiens with 7 samples.

Results

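The 39 genes described here encode the enzymes and cofactors that take over an mRNA once its poly(A) tail has been shortened, together with the factors of nonsense-mediated decay (NMD). They were chosen by name from known roles in decay: decapping enzymes (DCP2, DCPS), decapping activators (DCP1A, DCP1B, EDC3, EDC4, PATL1, DDX6, PNRC2), the LSM ring (LSM1 to LSM7), the 5′-3′ exonucleases XRN1 and XRN2, the exosome core (EXOSC1 to EXOSC9), 3′-5′ exonucleases (EXOSC10, DIS3, DIS3L, DIS3L2) and NMD factors (UPF1, UPF2, UPF3A, UPF3B, SMG1, SMG5, SMG6, SMG9). All 39 had a probe among the 19063 genes that could be named, and all were above background on every array, as were 16457 named genes in all.

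The cells were NCI-H520, an established human cell line derived from a lung squamous carcinoma, and were transfected with 6 µg of plasmid. All groups were selected with puromycin at 6 µg/mL from 12 h and harvested at 72 h. Empty vector and non-target shRNA served as controls. The other groups received an shRNA against 1 deadenylase each, namely PARN, CNOT6, CNOT6L, CNOT7 or nocturnin (NOC in the labels, NOCT as gene symbol). There were 7 single-colour Agilent arrays on 1 slide, with 1 array per group, so a difference on a single shRNA array has no replicate check. The labels give the CNOT6L and NOC shRNAs the same target accession, which leaves the sequence behind the CNOT6L shRNA uncertain. Transfection was transient, and wild type cells were not analysed here.

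Deadenylases trim the poly(A) tail. An mRNA that has lost its tail can be decapped by DCP2, with help from DCP1A, the EDC proteins, DDX6, PATL1 and the LSM ring, and then degraded from its 5′ end by XRN1. Alternatively it is degraded from its 3′ end by the exosome, after which DCPS cleaves the remaining cap. NMD removes mRNAs with a premature stop codon: SMG1 phosphorylates UPF1, and SMG5 and SMG6 then bring in decapping, deadenylation or an endonucleolytic cut. The question was whether the mRNAs of this machinery differed when a deadenylase was silenced.

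The slide has a layout that touches every comparison. Slide row 1 held both controls and the arrays for PARN and CNOT6 silencing, while the CNOT6L, CNOT7 and NOC shRNA arrays lay in slide row 2, which held no control. Slide row and shRNA therefore cannot be told apart for the latter 3 arrays, and the NOC shRNA image was also extracted on another day. Between 82.0% and 91.5% of 42405 gene probes were above background per array. Each targeted mRNA had its lowest value on the array of its own shRNA, with log2 differences from the control mean of -1.13 for PARN, -0.16 for CNOT6, -0.67 for CNOT6L, -0.88 for CNOT7 and -0.43 for NOCT. The reduction of CNOT6 (-0.21 and -0.11 against the empty vector and non-target arrays) was close to the software's error per spot of 0.144, and NOCT was only -0.22 from the non-target array, while its controls differed by 0.41 and the CNOT7 shRNA array was at -0.36 from their mean. The words upon silencing therefore name the shRNA given, not a level of knockdown. SOX2, a squamous lineage gene, was at 4.58 or more log2 units above the 75th percentile of signal on all 7 arrays, but TP63, KRT5 and DSG3, which also define squamous cells, were at or near background. KRT6A, the last of the 5 squamous markers, was above background but below the 75th percentile, at -2.38 to -0.78. The squamous label is therefore that of the cell line and was not drawn from these markers. The adenocarcinoma markers NKX2-1 and NAPSA, the neuroendocrine markers CHGA, SYP and INSM1 and the stromal and immune markers COL1A1, PECAM1 and PTPRC were also above background on all arrays, so being above background did not separate cell types here.

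A level below is the log2 processed signal of a gene's brightest probe minus the 75th percentile of its array, and is comparable across arrays only, not between genes. A difference is between such levels. In bulk RNA, fewer mRNA molecules per cell cannot be told apart from a change in the mix of cells.

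None of the 39 mRNAs differed 2-fold from both controls on any of the 5 shRNA arrays. Over the named genes, the share past 2-fold in the higher and lower direction was 0.0547% and 0.176% with PARN shRNA, 0.176% and 0.0972% with CNOT6 shRNA, 0.14% and 0.638% with CNOT6L shRNA, 0.079% and 0.674% with CNOT7 shRNA, and 0.237% and 0.875% with NOC shRNA. At such shares, a count of 0 among 39 genes lies near the background and is not particular to these genes. At 1.5-fold the count among the 39 genes was also 0 on all 5 arrays. Background shares at 1.5-fold, higher then lower, were 0.219% and 1.0% with PARN, 1.87% and 1.12% with CNOT6, 1.4% and 2.88% with CNOT6L, 0.93% and 3.25% with CNOT7 and 1.41% and 3.6% with NOC shRNA. The named genes had a median level of -1.01 against 1.62 for the 39 genes. The shares at both thresholds are thus not matched for brightness. The differences from the control mean were under 0.3 in size in 162 of 195 cases, and the largest was 0.68.

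**Figure D1:**
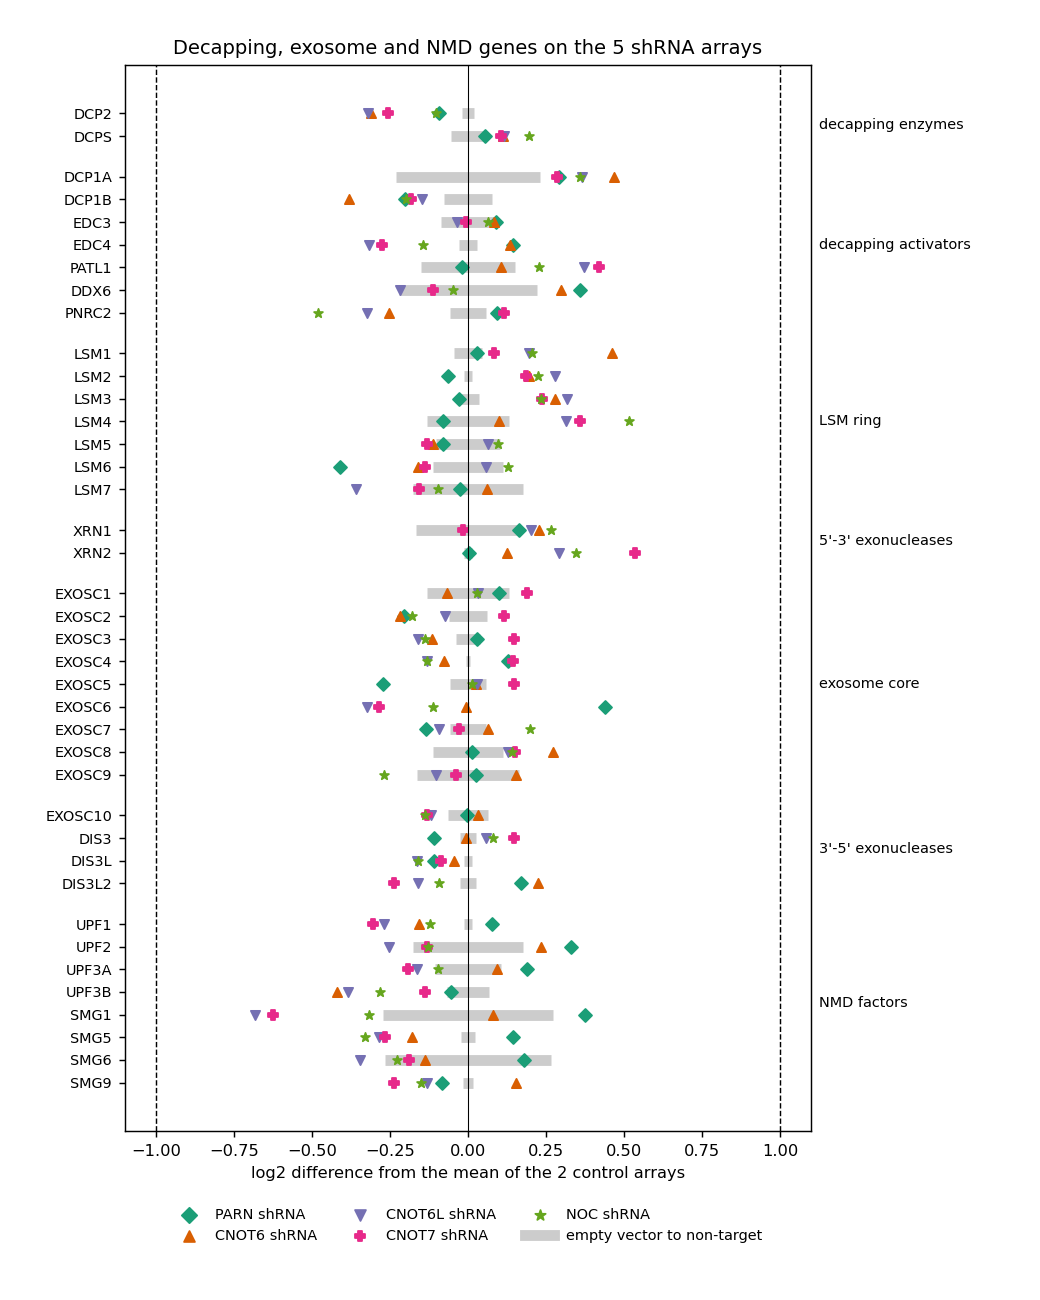
Log2 difference of each of the 39 mRNAs from the mean of the 2 control arrays (x axis), for the 5 shRNA arrays (symbols), grouped by role. Grey bars span the control arrays and dashed lines mark a 2-fold difference. All symbols lie between the dashed lines, and SMG1 upon CNOT6L silencing lies farthest out, at -0.68.

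The range over the 7 arrays, highest minus lowest level, had a median of 0.43 over the 39 genes and 0.62 over the named genes. Among probes brighter on average than the 75th percentile of their arrays, the medians were closer, at 0.41 for 30 of the 39 genes and 0.47 for 6374 named genes. The single range above 1 was that of SMG1, at 1.06, and the smallest was that of DIS3L, at 0.17. For scale, the error that the scanner software assigns to a spot was 0.144 to 0.146 on the log2 scale for these probes. This value is assigned, nearly the same for every probe, and is not a measured spread. The measured SD between spots, for probes on 2 spots, had a median of 0.048 to 0.073 per array. It does not cover differences between arrays. By median difference from the control mean, the 39 genes were at 0.03, 0.06, -0.12, -0.04 and -0.10 with the PARN, CNOT6, CNOT6L, CNOT7 and NOC shRNAs, and the named genes were at -0.01, 0.03, -0.00, -0.03 and -0.02. The controls themselves differed by up to 0.54 in size among the 39 genes, so none was 1.5-fold or 2-fold apart. Of the named genes, 15.0% were 1.5-fold higher and 3.45% lower on the empty vector than on the non-target array, and at 2-fold 7.14% and 0.462%.

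The decapping enzymes moved little. DCP2, the catalytic subunit that removes the 5′ cap, had levels of -0.15 on the empty vector and -0.11 on the non-target array, then -0.22 upon PARN, -0.44 upon CNOT6, -0.45 upon CNOT6L, -0.38 upon CNOT7 and -0.23 upon NOC silencing. All 5 shRNA arrays were thus below both controls, with differences from -0.34 to -0.07. DCPS, the scavenger that hydrolyses the cap left after 3′-5′ decay, was at 1.96 and 1.86 on the control arrays and at 1.96, 2.02, 2.02, 2.02 and 2.10 on the PARN, CNOT6, CNOT6L, CNOT7 and NOC shRNA arrays, in that order. Its shRNA values did not overlap with the controls, although the PARN shRNA and empty vector arrays were equal to 2 decimals and no shRNA array exceeded the latter by more than 0.14.

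Among the decapping activators, DCP1A and DCP1B, paralogous partners of DCP2, lay on opposite sides of the controls. DCP1A was at 4.18 on the empty vector and 3.72 on the non-target array, and at 4.24, 4.42, 4.32, 4.24 and 4.31 on the PARN, CNOT6, CNOT6L, CNOT7 and NOC shRNA arrays. The 5 shRNA arrays exceeded the empty vector array by only 0.05 to 0.24 and the non-target array by 0.52 to 0.70. The other DCP1A probe had the same order of controls, at 3.02 and 2.61, with 3.03 to 3.33 on the shRNA arrays. DCP1B was at -0.46 and -0.31 on the controls and at -0.59, -0.77, -0.53, -0.57 and -0.58 in the same order of shRNAs. It was lowest upon CNOT6 silencing, where the brighter DCP1A probe was highest. The other DCP1A probe was at 3.14 there and was highest upon NOC silencing, at 3.33.

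The other activators were split between the slide rows or showed no common pattern, and were picked out after their values were seen. EDC4, the scaffold that bridges DCP1A and DCP2, was at 4.23, 4.17, 4.35 and 4.34 on the row 1 arrays and at 3.88, 3.92 and 4.06 upon CNOT6L, CNOT7 and NOC silencing. Its dimmer probe differed by -0.09 between the rows, against -0.32 for the brighter. PATL1, which links the LSM ring to DDX6 and the decapping complex, was at 1.61, 1.31, 1.44 and 1.57 in row 1 and at 1.83, 1.88 and 1.69 in row 2. DDX6, an RNA helicase of processing bodies, was at 1.07 on the non-target array and at 1.07 to 1.24 in row 2, so that its row 2 values did not lie below this control. Its other probe was at 0.46 and 0.18 on the controls and between -0.11 and 0.01 in row 2 (row difference -0.42, limma adjusted p = 0.0380). EDC3 stayed between 1.64 and 1.82 on all arrays.

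PNRC2, an adaptor between UPF1 and DCP1A, differed among the arrays of slide row 2, a comparison free of the row, and was also picked out after its values were seen. Its level was 1.18 upon CNOT6L, 1.62 upon CNOT7 and 1.03 upon NOC silencing, against 1.45 and 1.56 on the controls, 1.60 upon PARN and 1.25 upon CNOT6 silencing. The CNOT7 shRNA array stood 0.52 above the mean of its row mates, the largest such difference of any of the 39 genes, and the NOC shRNA array 0.38 below. The other PNRC2 probe gave 0.04, 0.67 and -0.05 on the same 3 arrays, in the same order. With 1 array per shRNA this difference has no test, and none of the 39 genes was 1.5-fold from both row mates. The background shares of that comparison, higher then lower, were 0.972% and 0.359% with CNOT6L, 0.34% and 0.292% with CNOT7 and 0.328% and 0.48% with NOC shRNA. At 2-fold the count was 0 too, with shares of 0.152% and 0.0243%, 0.079% and 0.0182%, and 0.0911% and 0.0547% in the same order.

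By brightest probe, the 5 mRNAs whose shRNA values did not overlap with either control were DCPS and DCP1A on the higher side and DCP2, DCP1B and DIS3L on the lower side. The same non-overlap was found in 2.91% (higher) and 4.07% (lower) of named genes, so 2 and 3 of 39 exceed those shares by about 1 gene in each direction. In limma, none of the 39 genes passed an adjusted p of 0.05 between the 5 shRNA and the 2 control arrays, nor did any of the 38005 probes tested. At an unadjusted p under 0.05 limma had 729 higher and 691 lower probes, 1.92% and 1.82%. Among the 39 genes only DCP1A was so placed, at a difference of 0.35 (SE 0.136, limma unadjusted p = 0.0272). This test asks only about a change shared by all shRNAs, since the residual spread comes from unlike shRNAs and unlike control plasmids. Within slide row 1, PARN and CNOT6 shRNA against the controls gave 0 of the 39 genes in limma at either an adjusted or an unadjusted p of 0.05, against 0.502% higher and 0.592% lower of 38034 probes at the latter.

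The LSM ring binds the oligoadenylated 3′ end of deadenylated mRNA and activates decapping. LSM4 was at 1.60 and 1.86 on the empty vector and non-target arrays, at 1.65 and 1.82 upon PARN and CNOT6 silencing, and at 2.04, 2.09 and 2.24 upon CNOT6L, CNOT7 and NOC silencing. Every row 2 value exceeded every row 1 value. LSM7 had its highest level on the non-target array, at 5.32, with 4.97 on the empty vector array and 5.12, 5.21, 4.79, 4.99 and 5.05 on the shRNA arrays in the order used above. It was the one LSM mRNA with a lower mean in row 2, and its control arrays differed by 0.35.

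The rest of the ring was described after its values were seen. LSM2 ranged from 3.42 to 3.68 in row 1 and from 3.66 to 3.76 in row 2, and LSM3 from 4.12 to 4.44 and from 4.39 to 4.47, with the CNOT6 shRNA array inside the row 2 range in both. On the dimmer LSM2 probe the rows did not overlap, at 0.24 to 0.54 in row 1 and 0.62 to 0.74 in row 2. LSM1, which sets the cytoplasmic ring apart from the nuclear one, was highest upon CNOT6 silencing, at 5.57 against 5.15 and 5.06 on the controls. LSM6 was lowest upon PARN silencing, by 0.41 from the control mean, while LSM5 remained within 0.24 over all arrays. Over the ring the median difference from the control mean was -0.06, 0.10, 0.19, 0.08 and 0.21 on the PARN, CNOT6, CNOT6L, CNOT7 and NOC shRNA arrays. Its 7 members are subunits of 1 complex and not replicates of a condition.

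XRN2, the nuclear 5′-3′ exonuclease, was at -0.78, -0.81, -0.80 and -0.67 in row 1 and at -0.51, -0.26 and -0.45 upon CNOT6L, CNOT7 and NOC silencing. The row 2 values again lay above all row 1 values. XRN1, its cytoplasmic counterpart, was at -0.38 and -0.71 on the controls and at -0.38, -0.32, -0.34, -0.56 and -0.28 on the PARN, CNOT6, CNOT6L, CNOT7 and NOC shRNA arrays. The PARN and CNOT7 shRNA values lay between the controls, which differed by 0.33, and the others exceeded the empty vector array by 0.04 to 0.10.

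The exosome core is a barrel of catalytically inert subunits through which RNA is threaded to DIS3. EXOSC6 had the second-widest range of the 39 genes, 0.76. It was at 0.44 and 0.45 on the controls and at 0.44 upon CNOT6 silencing, then at 0.88 upon PARN silencing and at 0.12, 0.16 and 0.33 upon CNOT6L, CNOT7 and NOC silencing. The PARN shRNA value thus stood 0.44 and 0.43 above the controls of its own slide row, below the 1.5-fold threshold, and it came from 1 spot per array. EXOSC8 was at 3.52 and 3.30 on the controls and 3.43, 3.68, 3.54, 3.56 and 3.55 on the PARN, CNOT6, CNOT6L, CNOT7 and NOC shRNA arrays. EXOSC2 was at -0.12 and -0.00 on the controls and at -0.27, -0.28, -0.14, 0.05 and -0.24 in that order. By brightest probe, neither differed from the controls in 1 direction on all shRNA arrays. The other EXOSC2 probe did, at -1.60 and -1.46 on the controls and between -2.14 (CNOT6) and -1.64 (CNOT7) on the shRNA arrays. The other core subunits spanned ranges from 0.28 (EXOSC4) to 0.43 (EXOSC9).

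Of the 3′-5′ exonucleases, DIS3L, a cytoplasmic exosome nuclease, was the most even. It was at 1.06 and 1.09 on the controls and at 0.97, 1.03, 0.91, 0.99 and 0.92 on the PARN, CNOT6, CNOT6L, CNOT7 and NOC shRNA arrays, so that its values did not overlap with the controls although they differed by 0.17 at most. DIS3, the processive nuclease of the nuclear exosome, was at -3.23 and -3.28 on the controls and at -3.36, -3.26, -3.19, -3.10 and -3.17. All 7 levels lay within 0.26, and the row 2 values were the highest 3. DIS3L2, an exosome-independent nuclease of uridylated RNA, and EXOSC10, the nuclear distributive nuclease, were both lower in row 2 than on every row 1 array, with row differences of -0.26 and -0.14. For DIS3L2 this held for the brightest probe only. On its other probes the rows overlapped, with CNOT7 shRNA at -3.64 against -3.65 on the non-target array, and NOC shRNA at -4.82 against -4.83.

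The NMD factors shared a direction in slide row 2. All 8 were below the control mean on each of the CNOT6L, CNOT7 and NOC shRNA arrays, with medians of -0.28, -0.21 and -0.19. Such a pattern was present in 36.1% of named genes in the lower direction and in 32.8% in the higher one, and in 18 and 12 of the 39 genes. Upon PARN and CNOT6 silencing, in slide row 1, the medians were 0.16 and -0.03, with 6 and 4 of 8 above the control mean. The control arrays differed by a median of 0.13 over these genes, and without the empty vector array 5 of 8, not 8, were below the remaining control on all 3 arrays. The direction did not extend to 9 NMD and exon junction partners, whose medians on the same 3 arrays were 0.06, 0.09 and 0.04, with 4 of 9 above the control mean on all 3 (SMG8, MAGOH, ETF1 and GSPT1) and 2 below (EIF4A3 and RBM8A). Because the 3 arrays share a slide row that holds no control, shRNA and row cannot be told apart here.

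**Figure D2:**
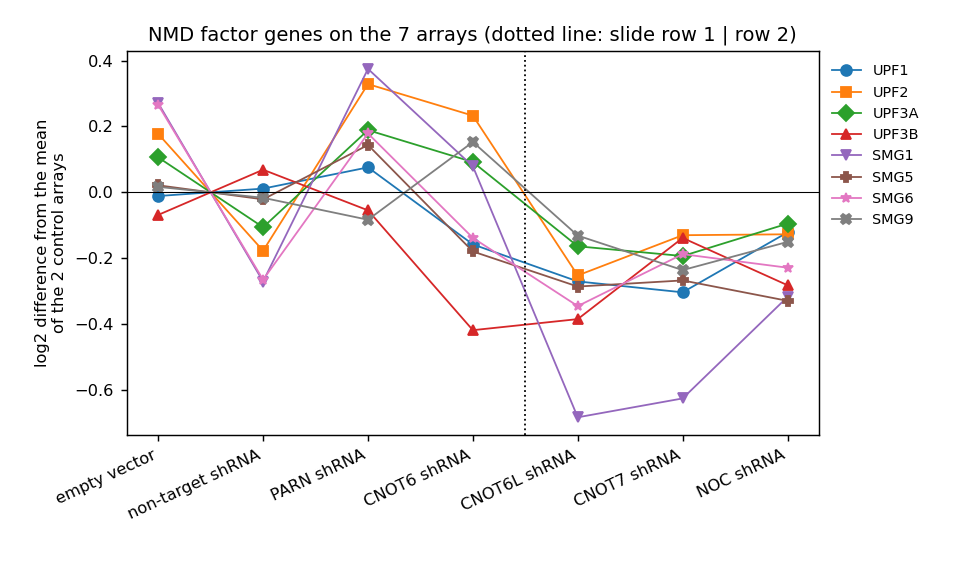
Log2 difference of the 8 NMD factor mRNAs from the mean of the 2 control arrays (y axis) on the 7 arrays (x axis), 1 line per gene. The dotted line separates slide row 1 from slide row 2, where all 8 lie below 0, and SMG1 and SMG6 show the widest gap between the control arrays.

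SMG1, the kinase that phosphorylates UPF1, varied most. It was at 2.88 on the empty vector and 2.34 on the non-target array, at 2.98 upon PARN and 2.69 upon CNOT6 silencing, and at 1.93, 1.98 and 2.29 upon CNOT6L, CNOT7 and NOC silencing. The row 2 arrays were lower than every row 1 array, by 0.59 to 0.95 against the empty vector array but by 0.05 to 0.41 against the non-target array. All 6 SMG1 probes had a lower mean in row 2, by differences from -0.79 to -0.11, of which 2 passed an adjusted p of 0.05 in limma. The 2 that passed separated the rows, while on the others the NOC shRNA array overlapped with row 1. On 1 of these it was at 2.24, above the empty vector and non-target arrays at 2.13 and 2.01. SMG1 has near-identical pseudogene copies in the genome, so the transcripts behind these probes are uncertain.

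UPF2, the scaffold that joins UPF1 to the UPF3 proteins, was at 3.32 and 2.96 on the controls, at 3.47 and 3.37 upon PARN and CNOT6 silencing and at 2.89, 3.01 and 3.01 in row 2. The row 2 values lay around that of the non-target array. Its other 4 probes differed by -0.14 to -0.00 between the rows, less than the -0.31 of the brightest. UPF3B, the X-linked partner of UPF2 at the exon junction complex, was at 1.63 and 1.77 on the controls and at 1.64, 1.28, 1.31, 1.56 and 1.41 on the PARN, CNOT6, CNOT6L, CNOT7 and NOC shRNA arrays. It was lowest upon CNOT6 silencing, in the same slide row as the controls, where it was 0.35 and 0.49 below them.

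The remaining NMD factors were described after their values were seen. UPF1, the helicase at the centre of NMD, was at 2.33 and 2.35 on the controls, 2.42 upon PARN and 2.18 upon CNOT6 silencing and 2.07, 2.04 and 2.22 in row 2. Its NOC and CNOT6 shRNA values overlapped across the rows. SMG5, an adaptor that binds phosphorylated UPF1, was at 2.80 and 2.75 on the controls, 2.92 and 2.60 upon PARN and CNOT6 silencing and 2.49, 2.51 and 2.45 in row 2, all 3 below row 1. On its other probe the rows overlapped, with NOC shRNA at -0.74 and the non-target array at -0.82. SMG6, the endonuclease of NMD, was at -0.50 on the empty vector but -1.03 on the non-target array, a gap that held every row 2 value except that of CNOT6L shRNA, at -1.11. UPF3A was at 0.34 and 0.13 on the controls and at 0.07, 0.04 and 0.14 in row 2, and SMG9, a regulator of SMG1, was at 0.42 and 0.38 and at 0.27, 0.16 and 0.25.

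**Figure D3:**
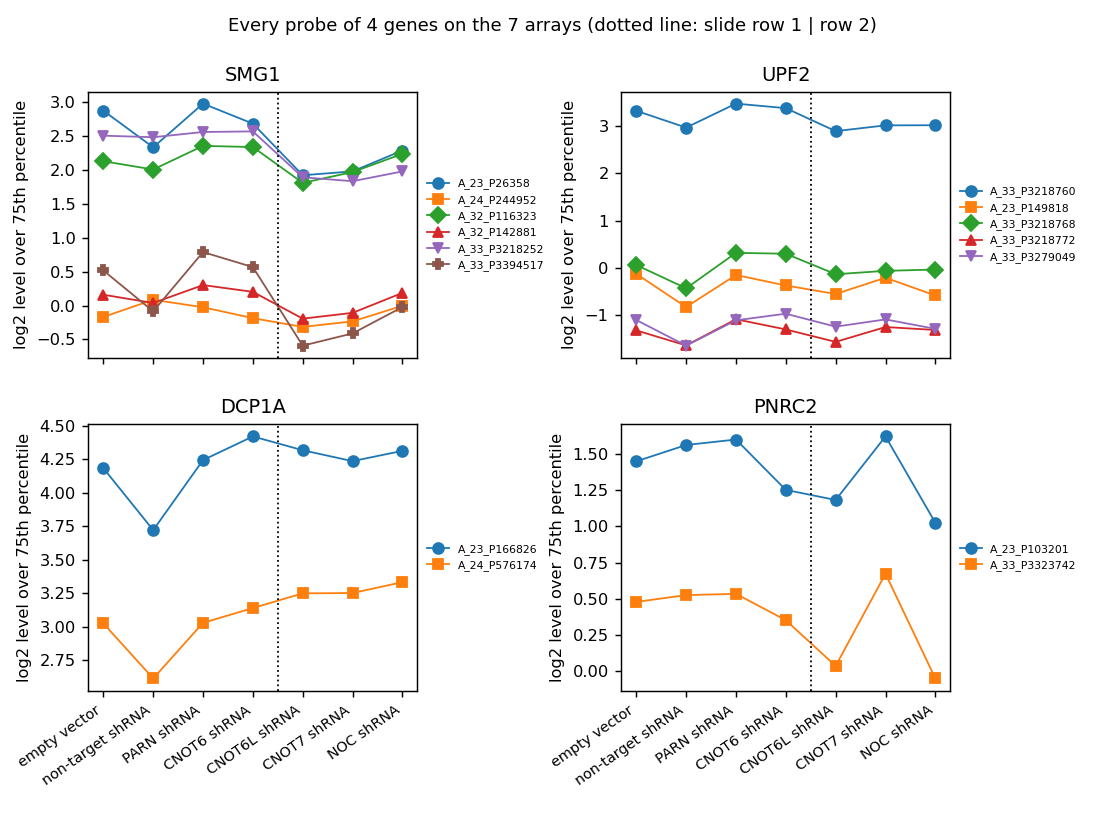
Level of every probe of SMG1, UPF2, DCP1A and PNRC2 (y axis, log2 relative to the 75th percentile of the array) on the 7 arrays (x axis), with a dotted line between the slide rows. The 3 brightest SMG1 probes are lower in row 2 than in row 1 on average, and both PNRC2 probes peak upon CNOT7 silencing.

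The slide rows were compared directly, with 3 arrays in row 2 and 4 in row 1. Limma called 920 probes higher and 1690 lower in row 2, 2.42% and 4.45% of 38005 probes. Of the 39 genes, LSM4 was higher (difference 0.39, SE 0.0981, limma adjusted p = 0.0465) and SMG1 lower (difference -0.66, SE 0.158, limma adjusted p = 0.0415). With 1 gene in each direction, the share among the 39 genes is near that background. At an unadjusted p under 0.05 limma placed PATL1, LSM2, LSM4 and XRN2 higher and EDC4, EXOSC6, UPF1, UPF2, UPF3A, SMG1 and SMG5 lower, against 9.51% and 16.0% of probes. By brightest probe, row 2 values lay wholly above row 1 for 4 genes (PATL1, LSM4, XRN2, DIS3), against 13.1% of named genes. They lay wholly below for 7 genes (EDC4, EXOSC6, EXOSC10, DIS3L2, SMG1, SMG5, SMG9), against 15.3%. For EDC4, DIS3L2, SMG1 and SMG5, the rows overlapped on a further probe. For DCP1A, DDX6 and LSM2 the rows overlapped on the brightest probe but not on the dimmer one. Both calls rest on few arrays: the adjusted p reached 0.163 for SMG1 and 0.178 for LSM4 when 1 array was left out. Of the 39 genes, 0 were called without the empty vector, PARN, CNOT6L, CNOT7 or NOC shRNA array, and 7 without the non-target array. These counts went with those over all probes. Limma called 36 to 398 probes higher and 238 to 946 lower in the former fits. Without the non-target array it called 2189 higher and 5609 lower of 38012. Against the control arrays alone, row 2 gave 0 calls among the 39 genes, beside 27 higher and 99 lower of 38047 probes. Against the PARN and CNOT6 shRNA arrays alone it gave 4, beside 1445 higher and 3713 lower of 38020 probes. The contrast between these counts is thus not particular to the 39 genes.

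**Figure D4:**
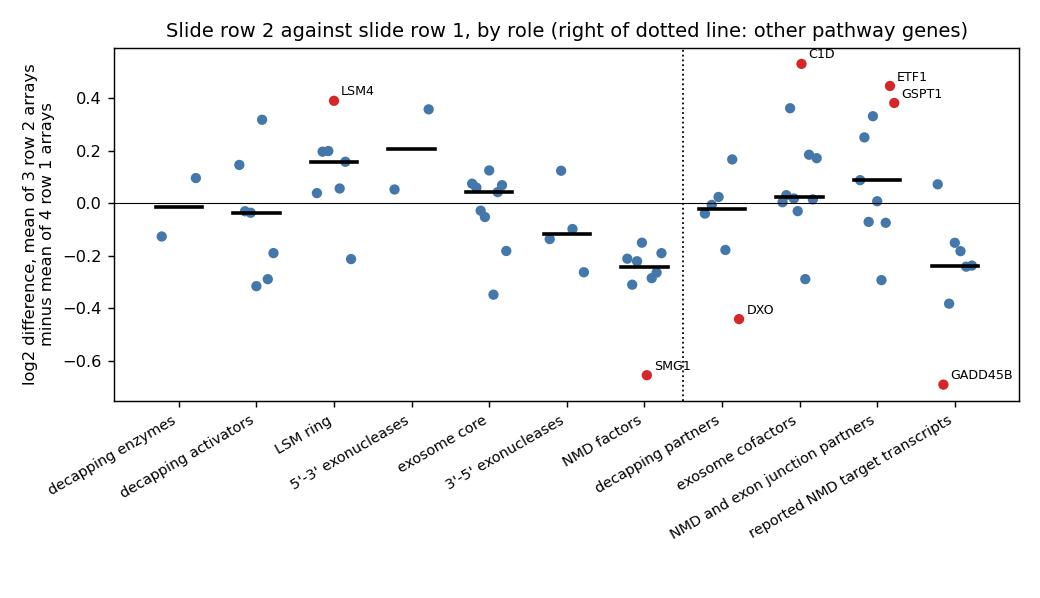
Log2 difference between the mean of the 3 row 2 arrays and the mean of the 4 row 1 arrays (y axis) for the 39 genes by role and, right of the dotted line, for 32 other genes of the pathway. Each point is 1 gene, black lines are medians and red points passed a limma adjusted p of 0.05. All 8 NMD factors lie below 0, and 6 of 7 LSM genes lie above.

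Other genes of the pathway, 32 in all, were followed alongside: decapping partners, exosome cofactors, NMD and exon junction partners, and transcripts reported as NMD targets. None differed 2-fold from both controls on any shRNA array. At 1.5-fold, ATF4, a stress-response transcription factor whose mRNA is a reported NMD target, was higher upon CNOT6 silencing, at 7.27 against 6.56 and 6.62 on the controls. The background for that call was 1.87%. GADD45B, a growth arrest and DNA damage gene also listed as a target, was alike on the 3 row 2 arrays, at 3.55, 3.47 and 3.50 with CNOT6L, CNOT7 and NOC shRNA against 4.13 and 4.27 on the controls. The latter pair passed 1.5-fold, against backgrounds of 3.25% and 3.6%, and CNOT6L shRNA fell just short, at -0.57 and -0.72 from the controls. These and the following genes were named after their values were seen. Between the slide rows limma called 3 of the 32 higher, namely the exosome cofactor C1D and the translation termination factors ETF1 and GSPT1, which bind UPF1 in NMD, and 2 lower, namely GADD45B and DXO, a decapping and 5′-3′ exonuclease. The background shares were 2.42% and 4.45% of probes. A dimmer C1D probe differed by 0.11 between the rows (limma adjusted p = 0.660) and was highest upon CNOT6 silencing, in row 1, at 0.36. The 7 reported NMD targets had medians of 0.03, 0.14, -0.13, -0.24 and -0.07 on the PARN, CNOT6, CNOT6L, CNOT7 and NOC shRNA arrays, and all 7 were below the control mean with CNOT7 shRNA, as were 8728 of 16457 named genes. That array lies in slide row 2, so shRNA and row cannot be told apart there either.

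Promoters are shown for the genes that passed a limma test between rows, SMG1 and LSM4, and for DCP1A, the one gene past an unadjusted p between shRNA and control arrays. The 250 bases before the RefSeq start (GRCh38.p14) are printed 5′ to 3′ on the minus strand, with matches to 8 searched motifs in capitals. SMG1 is at chr16:18926409-18926658, LSM4 at chr19:18323077-18323326 and DCP1A at chr3:53347544-53347793.
SMG1: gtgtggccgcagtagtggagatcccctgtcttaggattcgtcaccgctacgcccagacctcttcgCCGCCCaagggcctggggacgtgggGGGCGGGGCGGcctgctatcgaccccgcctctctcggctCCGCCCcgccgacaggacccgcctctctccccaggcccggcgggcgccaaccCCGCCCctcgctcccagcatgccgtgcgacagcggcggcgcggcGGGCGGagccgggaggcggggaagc
LSM4: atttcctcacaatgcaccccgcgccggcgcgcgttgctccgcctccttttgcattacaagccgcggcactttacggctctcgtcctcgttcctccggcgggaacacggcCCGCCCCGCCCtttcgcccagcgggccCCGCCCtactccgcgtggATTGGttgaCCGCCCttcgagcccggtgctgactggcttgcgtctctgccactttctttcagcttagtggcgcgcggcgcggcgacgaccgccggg
DCP1A: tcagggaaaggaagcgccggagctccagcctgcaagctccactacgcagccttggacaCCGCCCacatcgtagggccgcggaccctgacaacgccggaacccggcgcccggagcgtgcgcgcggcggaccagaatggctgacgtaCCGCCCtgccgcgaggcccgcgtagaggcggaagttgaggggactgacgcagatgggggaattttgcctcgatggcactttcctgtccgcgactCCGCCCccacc

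The capitals mark the SP1/KLF letters GGGCGG or its reverse complement, which matched at 6 places for SMG1 (the neighbouring GGGCGGGGCGG holds a pair that overlaps by 1 base), at 4 for LSM4 and at 3 for DCP1A, and in LSM4 also a CCAAT box. Over the 35 genes with a promoter in the table (LSM1, LSM6, EXOSC1 and EXOSC4 were not matched), 27 held GGGCGG on either strand, 77.1%, against 42.6% of 35116 promoters. The ETS letters CCGGAAG were found in 14.3% against 8.52%, CCAAT in 37.1% against 32.0%, the NRF1 core GCATGCG in 8.57% against 3.39%, the YY1 letters ATGGCGG in 5.71% against 2.88%, the cyclic AMP response core TGACGTC in 2.86% against 3.12%, the E-box CACGTG in 8.57% against 6.34% and TATAAA in 2.86% against 10.7%. The median GC content was 66% in the 35 promoters and 58% in all promoters, which a motif made only of G and C tracks. A match describes letters in this window and is not evidence of a bound factor.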

How the data were processed

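Total RNA of NCI-H520 cells was hybridised to single-colour Agilent SurePrint arrays, 7 in all, with groups taken from the sample titles. Per the file headers, the scanner files of the authors were written by Feature Extraction 10.7.3.1 with the intensity per spot, as processed signal, with flags for spots above background and outliers. The series table deposited by the authors holds log2 values centred per probe. Set against the scanner files, its differences between arrays were within 0.02 log2 for 100% of 33744 probes once 1 offset per array was removed. Its column medians ran from -0.020 to 0.090. It was used as an alternative with these offsets left in, which shifts all genes of an array together, and its centring per probe hides absolute levels.

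The main value was log2 processed signal minus the array's 75th percentile over gene spots, with outlier spots left out and spots of a probe averaged. A probe was above background where at least 50% of its spots were marked so. Symbols were taken from a RefSeq gene table (GRCh38.p14) matched by accession, and the CNOT6 probe from the accession in the labels with a leading zero restored. The brightest probe stood for a gene. The 39 genes had 57 probes, 10 genes had more than 1, and 27, 11 and 1 of the genes were on 1, 2 and 10 spots for that probe. None was saturated.

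The fold rule required a 2-fold difference or more against each control, both one way. Limma 3.58.1 in R 4.3.3 (lmFit, eBayes with trend, two-sided) was run over all probes above background on at least 2 arrays, with Benjamini-Hochberg adjustment at 0.05, and was tested on simulated data. Nothing in the labels places the arrays in separate cultures, so p-values measure only the spread between these arrays, whose number limits the precision. Values on all arrays were given for genes called by the fold rule, for the highest and lowest mean shRNA difference per role, and for the 3 widest ranges. EDC4, PATL1, PNRC2, UPF1 and SMG5 were added after their values were seen. Members, gene lists and rules were chosen with earlier results of these data known. Alternatives were quantile normalization, normexp (offset 50), the series table, outlier spots kept, the mean over probes, a 1.5-fold threshold, filters, slide row as a term and leaving out each array.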

Additional observations from a re-analysis of the deposited data

Results flagged for a closer look

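DCP1B, the DCP1A paralogue, was at -0.77 upon CNOT6 silencing, while the other 4 shRNA arrays were between -0.59 and -0.53. The gap from this array to the nearest of the others was 0.763 of the whole range of the 5 shRNA arrays, above the critical value of 0.71 for 5 values. Chance alone places about 1 in 20 such groups past this value, and 39 genes were screened. The level came from 1 probe on 1 spot per array.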

How the results depend on the processing

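No paired analysis was possible because the groups share only replicate number 1, with 1 array per group. Counts of the 39 genes at 2-fold against the controls, between the controls and against row mates were 0 under every alternative run, a 1.5-fold threshold at the main scaling included. The same held for limma counts of the 39 genes between shRNA and control arrays. The small medians moved: for CNOT6 from 0.06 to 0.0058 with quantile normalization and 0.040 with the series table, for CNOT6L from -0.12 to -0.080 with the series table, for CNOT7 from -0.04 to -0.11 with quantile normalization, -0.077 with normexp and 0.013 with the series table, and for NOC from -0.10 to -0.058 with normexp and -0.060 with the series table. With 1 control left out, the medians lay between -0.0096 and 0.068 for PARN, -0.0090 and 0.094 for CNOT6, -0.13 and -0.058 for CNOT6L, -0.029 and 0.059 for CNOT7 and -0.10 and -0.0083 for NOC. The 5 genes not overlapping with either control became 3 with quantile normalization, and between 5 and 17 with 1 array left out (17 without the empty vector, 9 without the non-target and 14 without the PARN shRNA array). Leaving out an array can only keep or raise this count. The shares of 2.91% and 4.07% of named genes are for all 7 arrays at the main scaling. They are thus no background for these counts, and none was computed. The 8 NMD factors below the control mean in row 2 were 8, and 7 with the mean over probes, under the other scalings, and 5 to 8 with 1 control left out (an alternative added after seeing the data). Calls between slide rows went from 2 to 0 with the series table and to 4 with the mean over probes, and ranged from 0 to 7 with 1 array left out. Against the PARN and CNOT6 shRNA arrays they were 4, and against the controls 0, both chosen after seeing the data. The cause of these moves was not tested beyond the samples or probes each alternative leaves out. Over all probes, limma between shRNA and control arrays called 47 higher and 14 lower without the empty vector array. For PARN and CNOT6 shRNA it called 82 higher and 19 lower with normexp, and 266 higher and 34 lower without the empty vector array. Between rows, limma called 1544 higher and 4235 lower with normexp, and 231 higher and 564 lower with the series table. Without the non-target array it called 2189 higher and 5609 lower, and with the mean over probes 946 higher and 1174 lower of 17789 genes. Row 2 gave 1445 higher and 3713 lower against the PARN and CNOT6 shRNA arrays, and 27 higher and 99 lower against the controls.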
